A study of Mus musculus with 3 samples.

Results

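The MYC and MAX network is a set of transcription factors of the basic helix-loop-helix leucine zipper class. The 10 genes described here were taken by symbol from a table of 34591 genes: Myc, Mycn and Mycl1 (the MYC proteins), Max (their common partner), Mxd1, Mxi1, Mxd3 and Mxd4 (the MXD repressors), Mnt and Mga. All 10 were in the table, 9 had counts in every library, and Mycn had none. RNA was sequenced from the established mouse breast cancer line 4T1 over-expressing WISP2, a CCN protein that cells secrete. The samples are 1 group of 3 libraries with the genotype WISP2 OE and no further treatment or time point. The design text sets them against empty-vector controls, which are not among these libraries and were not analysed here, so the values are levels in over-expressing cells and not a response to WISP2. The labels' protocol covers Wisp1 constructs selected with puromycin, and whether the WISP2 cells were a clone or a pool, or the libraries separate cultures, is not given in the sources used here. Every spread below is therefore a spread between these libraries, which may be technical.

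As background, MYC, MYCN and MYCL bind DNA only as dimers with MAX, at the E-box CACGTG and its variants, and activate genes of growth, ribosome production and metabolism. MXD proteins, MNT and MGA also pair with MAX, bind the same sites with it and repress. MXD proteins and MNT recruit the SIN3 corepressor with its histone deacetylases. MGA, which also has a T-box, belongs to a Polycomb complex called PRC1.6. MYC is among the most often activated genes of mammary and other carcinomas, and MXD genes are known for rising as cells leave the cycle.

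The recognition sequence of the network was looked for in promoters of its own genes. RefSeq windows of 250 bases before to 50 bases after a start (GRCm38.p6) matched 9 of the 10 genes, Myc having no entry. CACGTG, which reads the same on both strands, was in the window of 3 of these 9 genes (Max, Mnt and Mxd4), and in 8.09% of the 27025 genes with a window. The 3 stretches are shown because they hold the E-box, in capitals, and a stretch of Mxi1 because of the shorter motif described beside its values. Each runs 5′ to 3′ on the strand of the gene.

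Max, chr12:76962246-76962305, minus strand: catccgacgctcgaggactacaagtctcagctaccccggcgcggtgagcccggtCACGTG

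Mnt, chr11:74830774-74830833, plus strand: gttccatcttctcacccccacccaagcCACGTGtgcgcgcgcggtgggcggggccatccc

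Mxd4, chr5:34187897-34187956, minus strand: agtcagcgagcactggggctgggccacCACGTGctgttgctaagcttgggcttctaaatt

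Mxi1, second start, chr19:53329320-53329379, plus strand: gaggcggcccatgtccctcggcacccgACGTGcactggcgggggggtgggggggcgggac

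The E-box began 3 bases before the RefSeq start of Max and ran across it, 123 bases before that of Mnt and 219 bases before that of Mxd4. The 50 bases after this start of Max were not found unbroken in a GENCODE M21 transcript of the gene. Those of Mnt, Mxd4 and the second start of Mxi1 were. A match describes these letters and does not show that a factor binds there. No binding was measured in this study.

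The names C1, C2 and C3 for the libraries come from the column headings and carry no order. The libraries held 17630755, 67028365 and 47577315 counts, and levels are given as CPM (counts per 1e6 counts of the library), so that 1 count was worth 0.0567, 0.0149 and 0.0210 CPM. All 5 epithelial markers of the tumour cells (Krt8, Krt18, Krt7, Cdh1 and Epcam) reached 1 CPM in every library, against 2 of 10 leukocyte, 1 of 8 fibroblast (Pdgfra) and 0 of 5 endothelial markers. The leukocyte list summed to 20.2, 9.83 and 10.3 CPM in C1, C2 and C3, with Cd3e at 0 throughout. Lyz2 gave 9.42, 3.12 and 3.78 CPM of these. All 4 genes of the list tested for spread were highest in C1, beside 4047 of all 13026 genes tested. In edgeR's F test, described below, 0 of the 4 passed (Lyz2 adjusted p = 0.0742), beside 0.0691% of all genes. It called 1 without C2 and 1 without C3, where 0.196% and 0.0231% of all genes were called. The part of leukocyte RNA in the network values was not tested. The fibroblast list, with Lum and Thy1 at 0, summed to between 19.1 and 21.2 CPM, of which Pdgfra gave 18.4, 19.35 and 17.3 CPM in C1, C2 and C3. The endothelial list summed to at most 0.284 CPM. In bulk RNA, fewer cells of a type and less RNA per cell cannot be told apart.

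Myc was by far the most abundant gene of the network. Library C1 held 5819 counts of it, C2 20671 and C3 15313, or 330.0 CPM (exact binomial 95% interval 322 to 339), 308 CPM (304 to 313) and 322 CPM (317 to 327). The libraries lay within 1.07-fold of each other, with C1 highest and C2 lowest, and the mean was 320.1 ± 10.9 CPM (SD, n = 3). This level was above 95.3% of the 11700 genes that reached 1 CPM in every library, and 546 genes of the table were higher. Intervals cover counting error only. No molecular identifiers were used to tell reads of 1 molecule apart, so the intervals may be too narrow even for that. Variation between libraries beyond counting error had a common coefficient of 0.0571 over all genes tested (edgeR).

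The paralogs of Myc contributed little. Mycl1, known today as Mycl and first found amplified in lung carcinoma, stood at 5.62, 4.79 and 5.99 CPM in C1, C2 and C3 (mean 5.46 ± 0.615, SD, n = 3). C2 was lowest, and the intervals of all 3 libraries overlapped. Mycn, the paralog amplified in neuroblastoma, had 0 counts, which allows up to 0.170, 0.0448 and 0.0631 CPM in C1, C2 and C3 (a limit of 3 counts per library). Myc was thus at least 1939.7-fold higher than Mycn in C1, at least 6890-fold in C2 and at least 5104-fold in C3. Of the reads of this family after division by exon length, Myc took 98.9% ± 0.101 and Mycl1 1.13% ± 0.101.

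Outside the 10 genes, Bmyc, a rodent relative of Myc without the DNA-binding region, stood at 2.45 ± 0.304 CPM and Mycs at 0.

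**Figure D1:**
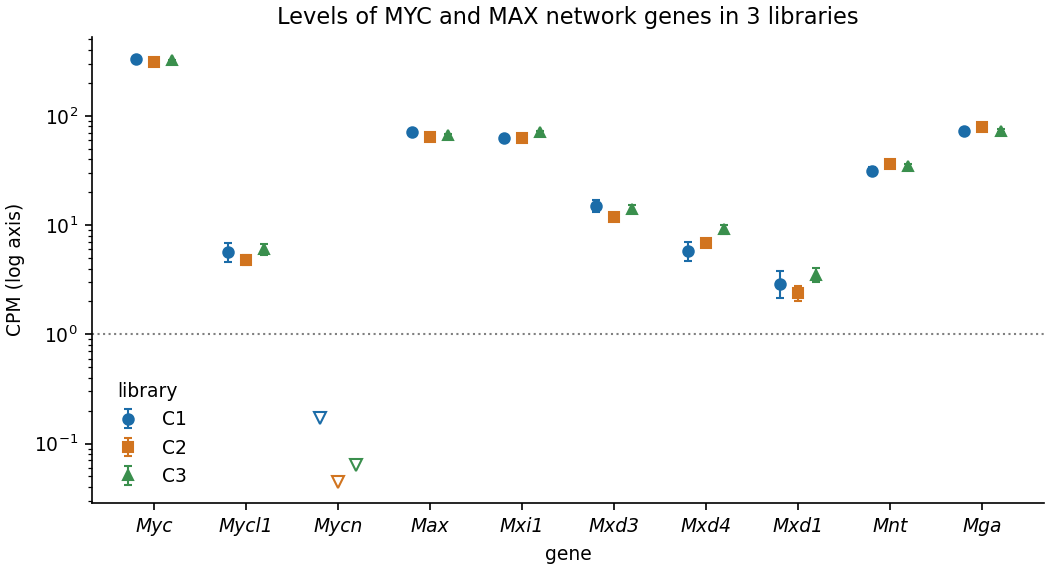
CPM (log axis) of the 10 network genes in libraries C1, C2 and C3, with exact 95% binomial intervals as bars. Open triangles give the limit set by 3 counts for Mycn, which had 0 counts, and the dotted line marks 1 CPM. Myc lies between 308 and 330.0 CPM, and Mxd1 is the lowest gene with counts.

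Max, the common partner of the set, stood at 71.1, 63.5 and 66.2 CPM in C1, C2 and C3 (mean 66.9 ± 3.85, SD, n = 3). C1 was highest, and the range was 1.12-fold. More reads fall on a longer transcript, so levels of different genes are compared here per kilobase of exon, with lengths from GENCODE M21. On that scale Max had 18.6 ± 1.07 CPM per kilobase and Myc 118 ± 4.02. Myc RNA exceeded Max RNA by 2.66 ± 0.04 on the log2 scale (6.34-fold), in 3 of 3 libraries. Dividing by the longest annotated transcript in place of all annotated exons, which for Max is 1942 against 3598 bases, gave 3.97-fold.

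Among the MXD repressors, Mxi1 and Mxd3 held most of the RNA. Mxi1, the MXD gene also known as Mxd2, stood at 62.0, 62.9 and 70.7 CPM in these libraries (mean 65.2 ± 4.79, SD, n = 3). C3 lay above the intervals of both other libraries, which overlapped each other. An opposite-strand gene, Gm10197, shares 194 exon bases with it and had 1 count in total. Mxd3, known as an MXD gene expressed in cycling cells, stood at 15.0, 11.8 and 14.2 CPM (mean 13.7 ± 1.68).

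C2 was the lowest library for Mxd3, below the intervals of both others. In GENCODE M21, Mxd3 shares 105 exon bases with Prelid1 on the opposite strand. Prelid1 stood at 331, 305 and 337 CPM in the same order of libraries. The strand setting of the counting is not given in the sources used here, so a part of Prelid1 in the Mxd3 counts was not tested.

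Mxd4 and Mxd1 were scarce. Mxd4 stood at 5.79, 6.85 and 9.19 CPM in C1, C2 and C3 (mean 7.27 ± 1.74, SD, n = 3), a range of 1.59-fold. C3 was highest, with an interval of 8.34 to 10.1 CPM that did not reach those of C1 (4.72 to 7.02) or C2 (6.24 to 7.50). The antisense gene Gm42846, which is not a row of the table, shares 514 exon bases with Mxd4, and its part in these counts was not tested.

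Mxd1, the founding member of the repressor family and induced when many cell types differentiate, stood at 2.89, 2.37 and 3.49 CPM in C1, C2 and C3 (mean 2.92 ± 0.559). The intervals of C2 and C3 did not overlap, and that of C1 overlapped both. After division by exon length, Mxi1 took 57.6% ± 2.56 of the MXD reads, Mxd3 34.7% ± 3.20, Mxd4 5.15% ± 0.963 and Mxd1 2.47% ± 0.283. Mxi1 exceeded Mxd3 by 0.73 ± 0.19 on the log2 scale per length (1.66-fold), in 3 of 3 libraries.

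Mnt, the repressor present in most cells, in cycle or not, stood at 31.4, 35.9 and 34.7 CPM in C1, C2 and C3 (mean 34.0 ± 2.32, SD, n = 3). C1 was lowest, and its interval did not reach that of C2. Mga stood at 72.7, 79.5 and 73.2 CPM (mean 75.2 ± 3.81), with C2 above the intervals of both others. In CPM Mga was second to Myc, but its exons span 15340 bases, and per kilobase it had 4.90 ± 0.248 CPM against 7.35 ± 0.502 for Mnt.

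Per kilobase the order was Myc, Max, Mxi1, Mnt, Mxd3, Mga, Mycl1, Mxd4 and Mxd1. Neighbours were compared as log2 ratios within libraries; an exact sign-flip test over 3 libraries cannot give a p below 0.25, so none is reported. Mxd3 did not differ from Mga beyond the spread (0.23 ± 0.25, higher in 2 of 3 libraries), though with the longest transcript it was higher by 0.53 ± 0.25 in 3 of 3. Mnt exceeded Mxd3 by 0.36 ± 0.27 in 3 of 3 libraries, but the longest transcript turned this to -0.08 ± 0.27. Mycl1 exceeded Mxd4 by 0.68 ± 0.31 in 3 of 3, which fell to 0.01 ± 0.31, higher in 1 of 3, with the longest transcript.

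The other 5 steps of the order kept their direction in 3 of 3 libraries with either length, from 0.38 ± 0.12 between Mxi1 and Mnt to 2.66 ± 0.04 between Myc and Max with all exons. Leaving out any 1 library changed no place in the order.

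**Figure D2:**
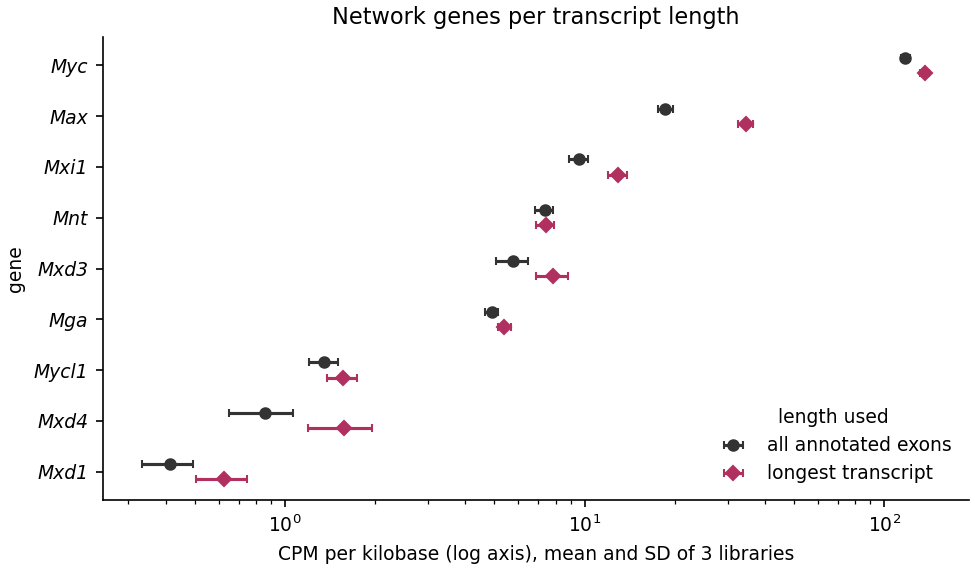
CPM per kilobase (log axis) of the 9 network genes with counts, mean and SD of 3 libraries, with the length taken from all annotated exons (circles) or from the longest transcript (diamonds). Myc stands at 118 and Max at 18.6 with all exons, and Mnt and Mxd3 change places with the other length.

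Set against each other as groups, the RNA of the MYC genes outweighed that of the repressors. After division by exon length, Myc took 70.7% ± 0.439 of the reads of the network (SD, n = 3), Max 11.2% ± 0.365, the 4 MXD genes together 9.95% ± 0.592, Mnt 4.42% ± 0.427 and Mga 2.95% ± 0.246. The summed MYC genes exceeded the summed MXD genes by 2.85 ± 0.09 on the log2 scale (7.19-fold), in 3 of 3 libraries. They exceeded MXD, Mnt and Mga together by 2.05 ± 0.07 (4.13-fold), with ratios of 4.38, 4.05 and 3.97 in C1, C2 and C3. In counts not divided by length this last ratio was 1.64-fold, Mga having the longest exons of the set.

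Max RNA was the smaller side of its partnerships. The summed partners exceeded Max by 2.99 ± 0.05 on the log2 scale per length (7.96-fold), in 3 of 3 libraries, or 5.06-fold with the longest transcripts. These are ratios of RNA, and protein was not measured.

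Between libraries the 9 genes with counts varied by more than counting noise, with coefficients of variation from 3.42% for Myc to 19.2% for Mxd1 and 23.9% for Mxd4. In a Poisson dispersion test on TMM-scaled counts with Benjamini-Hochberg adjustment, 9 of 9 passed, where 39.3% of all 13026 genes tested did (43.3% of the genes at 1 CPM or more). Adjusted p values ran from 1.09e-06 for Mxi1, 1.60e-06 for Myc and 3.74e-06 for Mxd4 to 0.0473 for Mnt. The power of this test grows with counts, and Myc had the most of them. Without C1 the count was 7, without C2 it was 2 (Mxd4 and Mxi1) and without C3 it was 5, where all genes passed at 36.8%, 13.8% and 12.9%.

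Against genes of similar level no member was called. With 3 libraries this test has 2 residual degrees of freedom, so a member not called may still vary more than such genes. In edgeR's quasi-likelihood F test, which sets the dispersion of a gene against the trend, 0 of 9 passed, with 0.0691% of all genes tested (9 genes) called. Only Mxd4 had an unadjusted p under 0.05 (0.0195, adjusted 0.806), its dispersion being 6.25 times the trend. For Myc this ratio was 0.828, the lowest of the 9, and the adjusted p was 0.995. The median ratio was 1.51 over the members and 0.739 over all genes tested.

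The members were not all highest in the same library. Myc, Max and Mxd3 were highest in C1, Mnt and Mga in C2, and Mycl1, Mxd1, Mxd4 and Mxi1 in C3. All 13026 genes tested were also spread over the libraries, with 4047 highest in C1, 4391 in C2 and 4588 in C3. The split of the members is thus no trait of the network. Relative to its own mean on the log2 scale, C3 deviated by 0.37 for Mxd4, 0.28 for Mxd1, 0.14 for Mycl1 and 0.12 for Mxi1. C2 deviated by -0.29 for Mxd1, -0.21 for Mxd3 and -0.19 for Mycl1.

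The base composition of transcripts moved with these libraries. Over 12760 genes, ordered by GC content of the longest transcript and cut into 4 equal parts, the GC-richest part (54.4% and more) had a median deviation of -0.05 in C2 and 0.05 in C3. The GC-poorest part (44.9% and less) had 0.04 in C2 and -0.04 in C3, and C1 deviated by at most 0.0046 in any of the 4. Mnt (59.5% GC), Mxd3 (56.5%) and Mycl1 (55.8%) belong to the GC-richest part and Mga (42.2%) to the GC-poorest. In C2, Mxd3 (-0.21), Mycl1 (-0.19) and Mga (0.08) deviated in the direction of their part and Mnt (0.08) in the other. In C3 all 4 went with their part, by 0.06 for Mxd3, 0.14 for Mycl1, 0.03 for Mnt and -0.03 for Mga. The other members with counts lie in the middle parts, whose median deviations in C2 and C3 were between -0.02 and 0.02. Mxi1 (46.3% GC) went against its part in C2 (-0.05) and C3 (0.12), and Max did in C2 (-0.08). Mxd4, Mxd1 and Myc went with theirs in C2 and C3, Mxd4 by 0.37 in C3, where its part had 0.01. Over the 12760 genes, which share these libraries, Spearman's rho of deviation with GC was -0.383 in C2, 0.354 in C3 and 0.003 in C1. With transcript length rho was -0.119 in C1, 0.09 in C2 and 0.017 in C3. The part of base composition or length in these values was not tested.

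Mxi1 is known as a target of the hypoxia-inducible factors, and the hypoxia list moved in the same library. Of its 12 genes, 9 were highest in C3, beside 4588 of all 13026 genes tested. The median deviation of the list was 0.22 in C3, -0.13 in C2 and -0.09 in C1, where that of all genes tested was between -0.001 and 0.002. Car9, a carbonic anhydrase induced by hypoxia, stood at 32.4, 30.3 and 55.7 CPM in C1, C2 and C3 and was the only gene of the list past the F test (adjusted p = 0.0298, edgeR). In that test 9 of 12 had an unadjusted p under 0.05, as had 671 of the 13026 genes. Without C3, 0 of the list passed and 2 had an unadjusted p under 0.05, beside 3 and 619 of 12970 genes tested. Calls in the list numbered 3 without C1, 2 without C2 and 6 with no filter, where 0.39%, 0.196% and 0.91% of all genes were called. With a robust fit they numbered 0, and 0 genes in all were called. The glycolytic gene Pgk1 (509 ± 7.95 CPM) and P4ha1, a collagen prolyl hydroxylase (117 ± 10.5), were abundant members of the list. The epithelial markers were also higher in C3, with a median deviation of 0.11 there against -0.05 in C1 and -0.02 in C2. Of these 5 markers, 4 were highest in C3, beside the same 4588 of 13026 genes. Mxi1, which deviated by 0.12, was 70.7 CPM in C3 against 62.0 and 62.9, with an adjusted p of 0.995 in that test. The part of hypoxia genes or epithelial markers in the value of Mxi1 was not tested.

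The core letters of a hypoxia response element, ACGTG or GCGTG on either strand, were in promoter windows of 11 of 11 matched hypoxia genes and in 46.7% of all genes with a window. They were also in 7 of 9 matched network genes (77.8%) and in 18 of 21 MYC-activated targets (85.7%), so the match in Mxi1 is shared with most of the network. CACGTG itself holds ACGTG, so the motifs overlap. Mxi1 has 3 starts in the table. The first window held no such match, the second held the ACGTG printed above, 66 bases before the start, and the third, whose start lies 282 bases downstream, held ACGTG 25 bases before it, in sequence that transcripts from the second start would include.

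**Figure D3:**
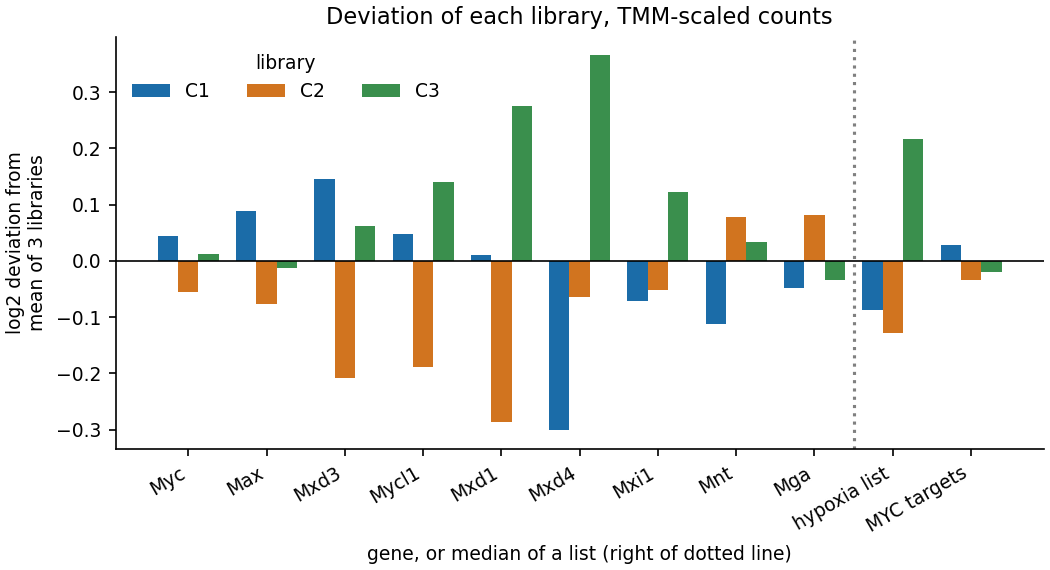
Log2 deviation of libraries C1, C2 and C3 from the mean of the 3, on TMM-scaled counts, for the 9 network genes with counts and, right of the dotted line, the median over the hypoxia list and over the MYC-activated targets. Mxd4 reaches 0.37 in C3, and the hypoxia list has a median of 0.22 there.

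The parallel arm built on MLX was present without its glucose-sensing partner of liver. Mlxip, which encodes MONDOA, stood at 63.3 ± 4.36 CPM (SD, n = 3) and Mlx at 29.0 ± 0.743. Mlxipl, which encodes ChREBP, had 0 counts. Of the other E-box factors of this class 8 of 9 reached 1 CPM, led by the lipid regulators Srebf2 (209 ± 3.14 CPM) and Srebf1 (133 ± 7.96), the lysosomal regulator Tfe3 (50.04 ± 1.36) and Usf1 (48.4 ± 2.81). Tfec, a relative of Mitf, had 0 counts.

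The cofactors through which the network acts were all detected. All 10 genes of the SIN3 complex, which MXD proteins and MNT recruit, reached 1 CPM, with the histone chaperones Rbbp7 at 372 ± 18.9 CPM and Rbbp4 at 345 ± 5.14, the deacetylase Hdac2 at 170.4 ± 3.55 and the scaffold Sin3a at 112 ± 6.06. All 14 MYC coactivators did so too, with the chromatin remodeller Ep400 at 215 ± 10.3 CPM, Ruvbl2 at 181 ± 7.32 and the scaffold Trrap at 175 ± 3.94. The list medians were 94.8 and 110.4 CPM, against 29.2 CPM over all genes tested. Of the complex that MGA enters, 10 of 10 genes were detected, led by Tfdp1 (349 ± 4.02 CPM), Cbx3 (165 ± 6.13), Wdr5 (135 ± 2.61) and Rnf2 (81.0 ± 2.29).

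Spread beyond counting noise was found for 4 of 10 SIN3 genes, 6 of 14 coactivators and 2 of 10 genes of the MGA complex, beside 39.3% of all genes tested. Without C2 the counts were 2, 2 and 2, and without C3 they were 1, 4 and 0, where all genes passed at 13.8% and 12.9%. With all libraries, 0 genes of these lists passed the F test, and 0 had an unadjusted p under 0.05.

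Genes that set the turnover of MYC protein were detected in 14 of 14 cases. Set, an inhibitor of the phosphatase that destabilises MYC, stood at 719 ± 31.3 CPM, the ubiquitin ligase Huwe1 at 411 ± 34.3, C330027C09Rik, the gene of the phosphatase inhibitor CIP2A, at 226 ± 6.14 and Trpc4ap at 145 ± 4.88. The list median was 105.6 CPM, against 29.2 CPM over all genes tested, and the power of the Poisson test grows with counts. In the Poisson test 10 of the 14 passed (71.4%, beside 39.3% of all genes), and 4 did without C2 or without C3, where all genes passed at 13.8% and 12.9%. In the F test none did, but Skp2 (119.7, 112 and 97.4 CPM in C1, C2 and C3) and Huwe1 (378, 447 and 409) had unadjusted p of 0.0228 and 0.0390, with adjusted p of 0.827 and 0.922 in edgeR.

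All 4 genes of other MYC-binding proteins were detected: Bin1, an interactor of MYC with tumour suppressor activity, stood at 107 ± 5.73 CPM, Mycbp2 at 91.7 ± 6.97, Zbtb17, which encodes MIZ1, at 26.1 ± 1.46 and Mycbp at 18.9 ± 1.34.

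Of 16 regulators of Myc transcription and mRNA 14 reached 1 CPM in every library. The Wnt effector Ctnnb1 stood at 975 ± 16.3 CPM, the RNA-binding genes Hnrnpk at 826 ± 31.3 and Hnrnpd at 389.5 ± 15.2, and Cnbp at 529 ± 4.64. Lef1 (0.976 CPM on average) and Igf2bp3 (0.0768 CPM) did not. The list median was 147.5 CPM, against 29.2 CPM over all genes tested, and the power of the Poisson test grows with counts. In the Poisson test 12 of 15 tested genes passed, beside 39.3% of all genes. Without C2 or without C3 4 did, where all genes passed at 13.8% and 12.9%. With all 3 libraries, in the F test 0 passed, with 0 at an unadjusted p under 0.05.

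Genes that MYC is known to activate were at high levels, and the part of MYC in these levels was not tested. All 26 genes of the activated list reached 1 CPM and 22 exceeded 100 CPM, with a median of 395 CPM. Highest were Npm1 (3299 ± 152 CPM) and Ncl (3156 ± 77.7), both of the nucleolus, Ldha, the lactate dehydrogenase (2075 ± 104), and Ptma (1968 ± 46.8). Npm1 and Ldha have near-identical processed copies, so their levels are uncertain. CACGTG was in the windows of 6 of 21 matched genes of this list (28.6%), against 8.09% of all genes.

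The activated targets had little common shift between libraries, which does not measure how much each gene varied. The median deviation was 0.03 in C1, -0.03 in C2 and -0.02 in C3, while Myc deviated by 0.04, -0.06 and 0.01. Each of these values is given for 3 libraries only, and the relation was not tested. The list median was 395 CPM, against 29.2 CPM over all genes tested, and the power of the Poisson test grows with counts. In the Poisson test 21 of 26 passed (80.8%, beside 39.3% of all genes). Without C2 16 did and without C3 13, where all genes passed at 13.8% and 12.9%. In the F test with all libraries 0 passed, with 3 (Bop1, Srm and Ppan) at an unadjusted p under 0.05 and each of them lowest in C2. The median ratio of dispersion to the trend was 0.997 over the list and 0.739 over all genes tested.

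Genes that MYC is known to repress were uneven. Of 7, the matricellular gene Thbs1 (1079 ± 78.6 CPM), Ndrg1 (344 ± 73.4), Gadd45a (14.6 ± 4.32) and the cell cycle inhibitor Cdkn1a (8.26 ± 1.79) reached 1 CPM. Cebpa (0.222 CPM on average), Cdkn1c (2 counts, all in C2) and Cdkn2b (0 counts) did not. Ndrg1, which the hypoxia list also holds, stood at 296, 307 and 429 CPM in C1, C2 and C3 (adjusted p = 0.0742 in the F test, edgeR). All 4 tested genes of this list passed the Poisson test, where 39.3% of all genes did, and 2 passed without C3, where 12.9% did. In the F test 0 passed with all libraries, with 3 at an unadjusted p under 0.05. That test called 1 without C1, 1 without C2 and 2 with no filter, where 0.39%, 0.196% and 0.91% of all genes were called.

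Proliferation genes were detected in 10 of 10 cases, led by Top2a (1204 ± 43.1 CPM) and Mki67 (724 ± 41.7), and their median deviation was between -0.03 and 0.04 in the libraries.

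**Figure D4:**
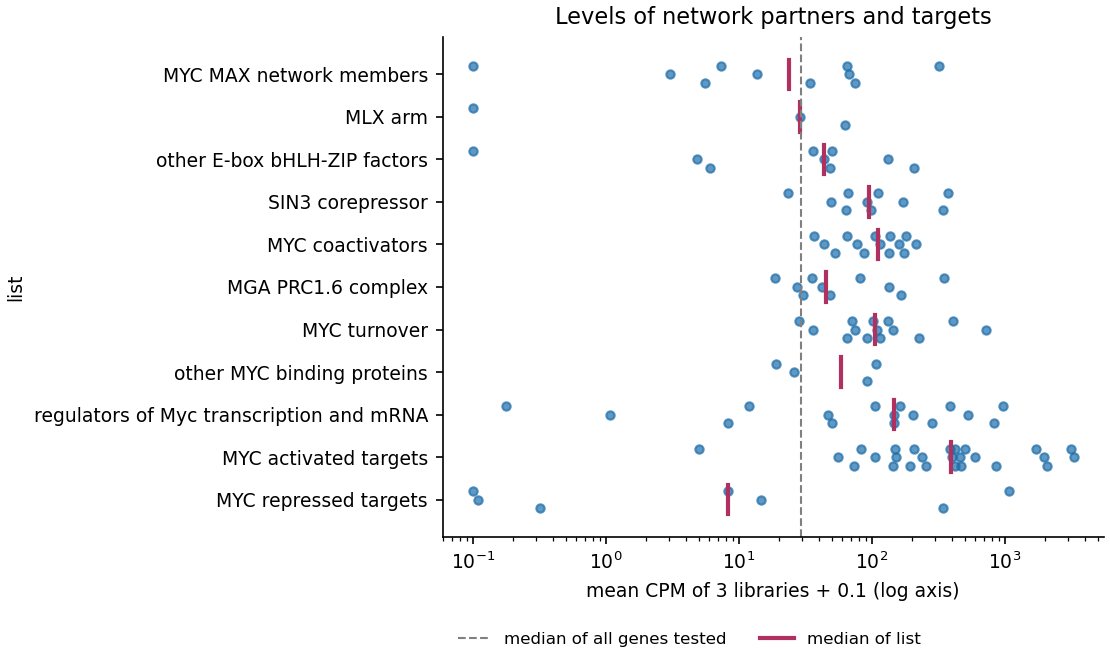
Mean CPM of 3 libraries plus 0.1 (log axis) for each gene (points) of the network and of the lists of partners, regulators and targets, with the median of each list as a bar. The dashed line is the median of all 13026 genes tested, 29.2 CPM; the activated targets have a median of 395 CPM and the repressed targets 8.26 CPM.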

How the data were processed

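Whole-number read counts per gene symbol in 3 libraries were deposited by the authors without normalization, as the values show. CASAVA 1.7, BWA, STAR, HTSeq and the mouse build mm9 are named, with no role or order, per the submitters' processing notes. The sources used here give neither the gene annotation nor how reads matching several genes were handled. No column heading equals a sample title; all columns were read as members of the only group. CPM used column totals (0 other sample columns were present). Spread was tested with edgeR 4.0.16 (R 4.3.3; TMM, filterByExpr, intercept only) and a Poisson test of dispersion (2 degrees of freedom, chi-square), adjusted over 13026 genes at 0.05, and checked on simulated data. Ratios within libraries had 0.5 counts added. GENCODE M21 gave lengths for 91.0% of symbols. That annotation and the promoter windows are on another build than mm9. Alternatives covered scaling (DESeq2 1.42.0 size factors among them), filters, lengths and left-out libraries. The genes named are every member and, of each list, the 4 most abundant, up to 3 at 0 counts and those past the F test; Prelid1, Skp2, Lef1, Igf2bp3, Cebpa, Cdkn1c, Bop1, Srm, Ppan and the overlapping genes fall outside that rule and were chosen after their values were seen. Of the genes this rule names, 1 is not reported here. Members and lists were chosen with earlier results of these data known.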

Additional observations from a re-analysis of the deposited data

How the results depend on the processing

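No paired analysis was possible because the samples are of 1 group. With a library left out, mean levels ranged from 315 to 326 CPM for Myc and from 6.32 to 8.02 CPM for Mxd4; a mean of 3 cannot move by 1 SD that way, so this is no sign of stability. Ratios in counts, on the log2 scale, changed with length. Division by all exons, then by the longest transcript (chosen after seeing the data), took Myc to Max from 2.26 to 2.66 and 1.99, Myc to Mycl1 from 5.87 to 6.45 and 6.46, Myc to Mxd1 from 6.79 to 8.17 and 7.78, Myc to Mxd3 from 4.56 to 4.36 and 4.13, Myc to Mxd4 from 5.48 to 7.13 and 6.47, Myc to Mxi1 from 2.30 to 3.63 and 3.40, Myc to Mnt from 3.24 to 4.00 and 4.21 and Myc to Mga from 2.09 to 4.59 and 4.67. The same steps took Mxi1 to Mxd3 from 2.26 to 0.73 and 0.73, Mxi1 to Mxd4 from 3.18 to 3.50 (all exons), the MYC genes to the MXD genes from 1.87 to 2.85 and 2.59, the MYC genes to all repressors from 0.72 to 2.05 and 1.95, and all partners to Max from 2.97 to 2.34 (longest transcript). None of these ratios changed sign, and adding 2 counts moved none by more than its SD. Members beyond counting noise numbered 2 to 7 with a library left out, where all genes passed at 12.9% to 36.8%. They numbered 8 with upper quartile scaling or with no filter, where Mycl1 missed the threshold and all genes passed at 39.6% and 26.5%. The F test called 0 members in all alternatives run. At 5 CPM in every library, 0 leukocyte markers and 0 other MYC family genes (Bmyc) were detected. At 10 counts in every library, 5 leukocyte and 2 fibroblast markers were.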
